A study of Mus musculus with 8 samples.

Results

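The subject here is the difference between Tet2-/- and wild-type cells that had the same sign in Th1 and in Th17 cells, that is, the genes whose mean log2 value was lower in the Tet2-/- cells of both types or higher in both. Of 19938 genes with a probeset of their own, 10417 (52.2%) met this rule, of which 4333 (21.7%) read lower in Tet2-/- cells of both types and 6084 (30.5%) read higher. The remaining 9521 genes (47.8%) had opposite signs. The genes were selected on the signs of these measured differences in group means, which come from the same 8 arrays as the values below, so membership is a description with no test. The rule has no minimum size: Nfatc3 was a member with differences of 2.5e-05 in Th1 and 0.39 in Th17 cells, while Lepr, at 4.5e-05 and -0.10, was not.

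The arrays measured total RNA from CD4 T cells of C57BL/6 mice, either wild-type or Tet2-deficient, in 4 groups of 2 arrays: wild-type Th1, Tet2-/- Th1, wild-type Th17 and Tet2-/- Th17. Naive CD4 T cells (CD25-, CD62L high, CD44 low) had been sorted from spleen and lymph nodes and stimulated with antibodies to CD3 and CD28. Th1 cultures received IL-12 at 10 ng/ml, IL-2 at 30 U/ml and an antibody to IL-4. Th17 cultures received TGF-beta1 at 0.5 ng/ml, IL-6 at 10 ng/ml and antibodies to IFN-gamma and IL-4, and the labels leave unstated whether IL-23 and IL-1beta were added. The labels call the arrays biological replicates without naming the mice behind each, and p-values measure only the spread between these arrays. The sources used here do not give how the Tet2 allele was inactivated, nor whether in T cells alone or in the whole animal.

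TET2 is a dioxygenase that oxidizes 5-methylcytosine in DNA, mostly at CG pairs, to 5-hydroxymethylcytosine, a step on the path to removal of the methyl group. Th1 and Th17 cells are helper T cell lineages known for IFN-gamma and IL-17 respectively, and in helper T cells TET2 is known for its action at cytokine genes. Setting the lineages side by side asks which of the differences with Tet2 loss were present in both.

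The helper T cell markers Cd3e, Cd3g, Cd4 and Cd28 had group means between 10.18 and 12.15 on the log2 scale, where array medians lay between 6.47 and 6.53. The mean of 5 Th1 markers was 10.03 to 10.38 on the Th1 arrays and 8.21 to 8.37 on the Th17 arrays, and the mean of 4 Th17 markers was 5.83 to 6.10 on the Th1 arrays and 8.94 to 9.44 on the Th17 arrays. Tet2 itself read 8.14 and 8.03 in wild-type Th1 cells, 8.12 and 7.97 in Tet2-/- Th1 cells, 8.53 and 8.51 in wild-type Th17 cells, and 8.37 and 8.42 in Tet2-/- Th17 cells. Its additive difference was -0.08 (SE 0.0788). These levels do not check the genotype labels, since it is not known whether the probeset lies within the deletion. The 4 Th17 arrays differed in sex-linked transcripts: the mean of Eif2s3y, Kdm5d and Uty was 8.80 and 7.82 in wild-type and 8.71 and 4.85 in Tet2-/- cells, and Xist read 5.20, 10.09, 8.62 and 11.27 on the same arrays. The Th1 arrays were alike, with Xist between 4.83 and 5.11. Calls over both cell types numbered 0 with all 8 arrays already. Leaving out the arrays of highest and lowest Y-linked level, both of them Th17, could therefore not test this spread through calls. The Th17 arrays left still read 10.09 in wild-type and 8.62 in Tet2-/- cells for Xist. The 24 genes described below were chosen for arrays that do not overlap, so leaving out arrays could not turn their sign and bears nothing on this spread.

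With cell type as a term, limma called 0 of 19938 genes (0%) for the difference between 4 Tet2-/- and 4 wild-type arrays at a Benjamini-Hochberg adjusted p under 0.05. At an unadjusted p under 0.05 there were 1048 genes (5.26%), and this threshold by itself passes about such a share when no gene differs. Of the 1048 genes, 376 (1.89%) read lower and 672 (3.37%) higher in Tet2-/- cells. This split depended on the scaling of the arrays: it was 558 lower and 564 higher after quantile normalization, and 532 and 505 after centring each array on its median. The median standard error of a difference was 0.0877 log2 units. In the median gene a difference of 0.19 reached an unadjusted p of 0.05. None of the differences given below passed the test after adjustment, so each is a measured value with its error. Because the sign rule and the fit use the same arrays, the adjusted p-values describe the members and are not independent of their choice.

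Agreement between the cell types was slight over the whole table. Across genes, the Tet2 difference in Th1 cells and that in Th17 cells had a Pearson r of 0.0574 and a Spearman rho of 0.0525 (19938 genes, which are not independent replicates and which share arrays within a cell type). Among the 12990 genes with a mean level of at least 6, Pearson r was 0.0828. Of the 100 genes with the smallest p for Tet2 loss in Th1 cells alone, 53 (53%) had the same sign in Th17 cells. Their median size was 0.50 in Th1 cells, and in Th17 cells their median in that direction was 0.01. Of the 100 with the smallest p in Th17 cells, 49 (49%) had the same sign in Th1 cells, with a median size of 0.51 in Th17 cells and a median of -0.02 in Th1 cells. These shares lay close to the 52.2% of all genes. Among the top 50 of Th1 cells the share was 64% (32 genes), and among the top 50 of Th17 cells it was 48% (24 genes).

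**Figure D1:**
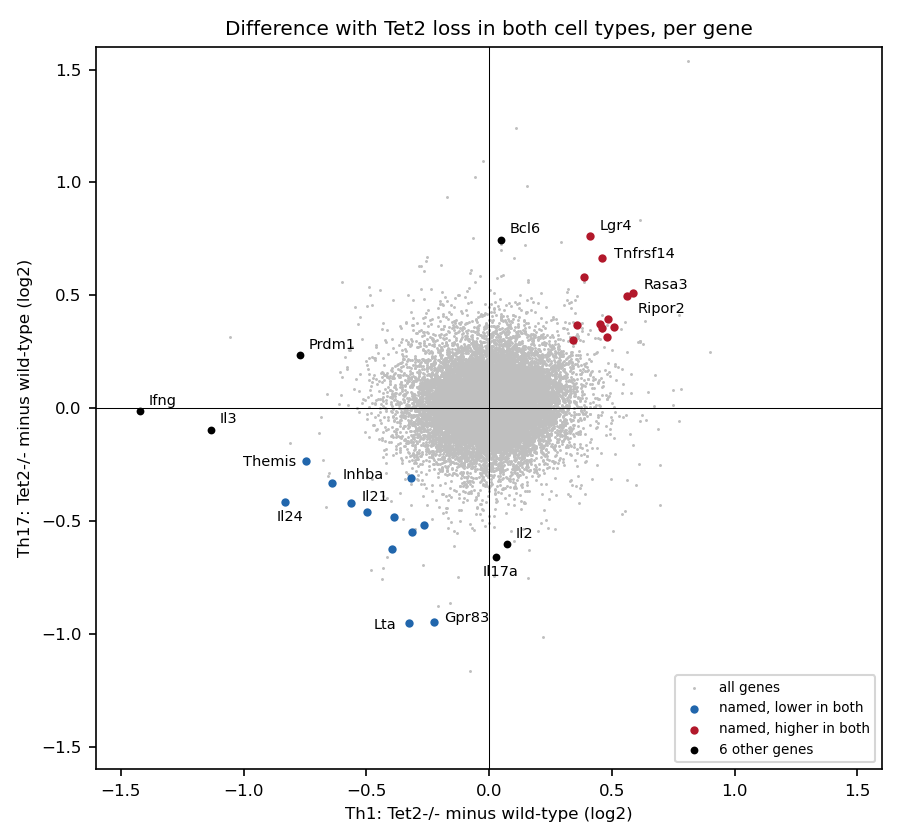
Difference between Tet2-/- and wild-type means (log2) in Th1 cells, horizontal axis, and Th17 cells, vertical axis, for all genes (grey; 4 of 19938 lie outside the axes at 1.6). Blue and red points are the 12 lower and 12 higher genes named by the rule in the text; black points are 6 other genes (Ifng, Il3, Prdm1, Bcl6, Il17a and Il2). The cloud of all genes is nearly round, with r = 0.0574, and the black points lie near an axis or, for Prdm1, in an opposite-sign quadrant.

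A stricter description of a shared difference asks that both Tet2-/- arrays lie beyond both wild-type arrays, in the same direction, in each cell type. With 2 arrays per group, some genes without any difference also separate in this way, and their share was not tested. The description held for 1122 members, 5.63% of all genes: 385 lower (1.93%) and 737 higher (3.70%). The excess of higher genes depended on the scaling of the arrays. Lower genes made up 34.3% of these genes with the values as deposited, 48.4% after quantile normalization (581 lower, 619 higher) and 50.4% after centring each array on its median (563 lower, 554 higher). Of the 1122 genes, 800 had the higher genotype's mean at 6 or more in both cell types (254 lower, 546 higher). After leaving out 61 predicted genes, clones, olfactory and vomeronasal receptors and small RNA genes, 225 lower and 514 higher genes were left, and the 12 of each with the smallest unadjusted p are described in full. All 24 kept their direction without overlap under quantile normalization and under median centring.

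**Figure D2:**
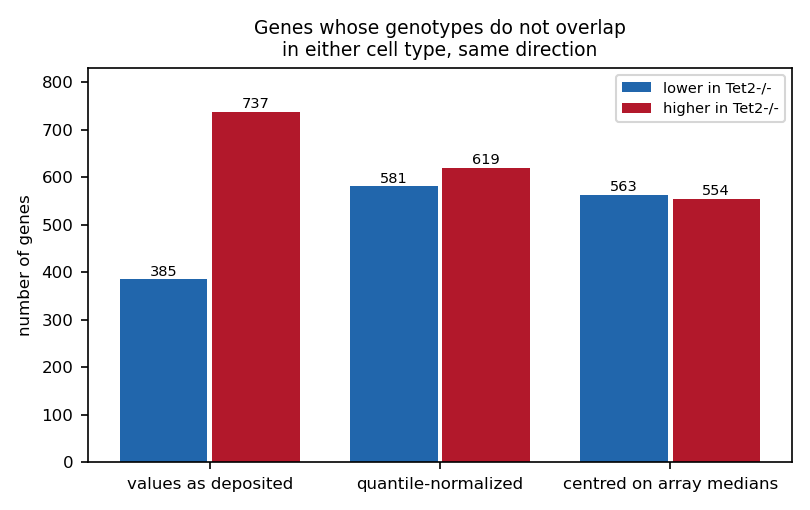
Number of genes whose Tet2-/- and wild-type arrays did not overlap in either cell type and differed in the same direction, under 3 scalings of the same 8 arrays. Blue bars are genes lower and red bars genes higher in Tet2-/- cells; higher genes outnumber lower ones 737 to 385 as deposited, and the counts are close (619 to 581, 554 to 563) under the other scalings.

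The cytokine genes Il21 and Lta were taken from the lower group, and the receptor genes Tnfrsf14 and Igf1r from the higher group. Since TET2 acts on methylated CG pairs, their promoters are shown as examples of CG content. Each is the RefSeq window (GRCm38.p6) from 250 bases before to 50 bases after the gene's start, 300 bases in all, 5′ to 3′ on the gene's strand, with CG pairs in capitals. The windows are Il21 at chr3:37232587-37232886 (minus strand), Lta at chr17:35205302-35205601 (minus strand), Tnfrsf14 at chr4:154928028-154928327 (minus strand) and Igf1r at chr7:67952007-67952306 (plus strand).
Il21: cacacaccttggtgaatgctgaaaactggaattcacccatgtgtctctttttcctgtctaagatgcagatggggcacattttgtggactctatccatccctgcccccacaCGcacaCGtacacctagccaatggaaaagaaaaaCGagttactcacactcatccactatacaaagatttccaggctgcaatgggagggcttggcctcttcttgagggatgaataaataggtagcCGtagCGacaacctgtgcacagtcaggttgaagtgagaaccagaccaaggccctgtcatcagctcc
Lta: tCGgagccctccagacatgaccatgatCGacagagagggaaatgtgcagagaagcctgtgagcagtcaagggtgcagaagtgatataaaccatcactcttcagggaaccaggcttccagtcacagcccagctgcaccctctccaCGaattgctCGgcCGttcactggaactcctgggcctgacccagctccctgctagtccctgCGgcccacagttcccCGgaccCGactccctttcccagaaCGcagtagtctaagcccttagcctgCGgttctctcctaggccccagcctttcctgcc
Tnfrsf14: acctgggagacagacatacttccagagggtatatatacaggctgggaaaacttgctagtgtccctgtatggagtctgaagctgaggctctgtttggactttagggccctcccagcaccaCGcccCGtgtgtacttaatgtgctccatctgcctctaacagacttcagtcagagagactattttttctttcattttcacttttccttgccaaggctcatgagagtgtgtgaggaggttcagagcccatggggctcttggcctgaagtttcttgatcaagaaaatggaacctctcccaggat
Igf1r: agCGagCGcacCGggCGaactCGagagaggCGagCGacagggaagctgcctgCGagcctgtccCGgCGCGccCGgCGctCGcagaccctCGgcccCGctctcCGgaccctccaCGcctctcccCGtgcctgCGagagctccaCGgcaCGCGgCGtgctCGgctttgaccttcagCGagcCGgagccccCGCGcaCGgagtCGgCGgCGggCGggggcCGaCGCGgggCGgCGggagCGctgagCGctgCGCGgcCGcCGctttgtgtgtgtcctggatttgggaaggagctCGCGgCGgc

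The Il21 window held 5 CG pairs, and 43.6% of 27025 promoters in the table had as many or fewer. Lta held 10 (58.1% had as many or fewer), Tnfrsf14 held 2 (23.8%), Igf1r held 48 (99.0%), and in the lower group Atrnl1, not printed here, held 41 (97.1%). Both directions thus had windows with few and with many CG pairs. RefSeq windows were found for 10 of the 12 lower genes and for all 12 higher genes. Their CG counts ran from 1 to 41 (median 9) in the lower group and from 2 to 48 (median 12.5) in the higher group. The median was 15 for the 15614 genes of the array with a window. It was 7 for the 27025 promoters behind the shares above, so those shares would be lower among array genes. The AP-1 motif TGANTCA, which reads as the same pattern on both strands, was found in 0 windows of either group and in 6.98% of the windows of array genes. The RUNX motif TGTGGT, searched on both strands, was found in 1 window of each group and in 14.3% of those of array genes. The arrays measured RNA, and methylation at these windows was not measured.

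Among secreted proteins, 3 of the lower genes are cytokine genes. Il24 encodes a cytokine of the IL-10 family. It read 9.59 and 9.58 in wild-type and 8.79 and 8.72 in Tet2-/- Th1 cells, then 6.77 and 6.99 in wild-type and 6.69 and 6.22 in Tet2-/- Th17 cells. The Tet2-/- arrays were lowest in each type, by a wide margin in Th1 cells, while the Th17 levels lay around the array medians with 1 Tet2-/- array just under the wild-type ones. The difference was -0.83 in Th1 and -0.42 in Th17 cells, and -0.63 over both (SE 0.118, 1.54-fold, limma adjusted p = 0.402). Without Tet2-/- Th17 replicate 1 its adjusted p was 0.0976, the lowest of any of the 24 genes over 20 alternatives, and the highest for Il24 was 0.983.

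Lta encodes lymphotoxin alpha, a TNF family cytokine that signals in lymphoid tissue formation and inflammation. It read 10.19 and 10.27 in wild-type and 10.11 and 9.70 in Tet2-/- Th1 cells, then 9.71 and 9.95 in wild-type and 8.98 and 8.77 in Tet2-/- Th17 cells. The gap between genotypes was clear in Th17 cells, while in Th1 cells 1 Tet2-/- array lay just below the wild-type pair. The difference was -0.33 in Th1 and -0.95 in Th17 cells, and -0.64 over both (SE 0.136, 1.56-fold, limma adjusted p = 0.549), the largest among the 12 lower genes. The difference between these effects, -0.62, had an unadjusted p of 0.0144 and an adjusted p of 0.999 by limma.

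Il21 encodes a cytokine of helper T cells that acts on B cells and on T cells themselves. It read 9.72 and 9.46 in wild-type and 8.78 and 9.28 in Tet2-/- Th1 cells, then 11.33 and 11.26 in wild-type and 11.02 and 10.73 in Tet2-/- Th17 cells. Both Tet2-/- arrays lay below both wild-type arrays in each type. The difference was -0.56 in Th1 and -0.42 in Th17 cells, and -0.49 over both (SE 0.118, 1.41-fold, limma adjusted p = 0.697).

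Inhba encodes the beta A subunit of activin A, a TGF-beta family ligand. Wild-type Th1 cells read 8.50 and 8.88 and Tet2-/- Th1 cells 8.05 and 8.05, while wild-type Th17 cells read 9.89 and 9.56 and Tet2-/- Th17 cells 9.27 and 9.51. The highest Tet2-/- Th17 array lay only slightly below the lower wild-type array. The difference was -0.64 in Th1 and -0.33 in Th17 cells, and -0.49 over both (SE 0.115, 1.40-fold, limma adjusted p = 0.697). Pyy, which encodes the gut hormone peptide YY, is not known for a role in T cells and read 6.41 to 6.87 on all 8 arrays, near the array medians, with a difference of -0.32 over both (limma adjusted p = 0.697).

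The list of T cell cytokines held 26 measured genes. Of these, 11 (42.3%) had the same sign in both cell types, against 52.2% of all genes. All 11 read lower in Tet2-/- cells and 0 read higher, against 4333 lower and 6084 higher among all genes. The cell types were unequal: 23 of the 26 read lower in Th17 cells, whereas in Th1 cells 14 read lower and 12 higher. Under quantile normalization and under median centring the counts were 12 lower and 0 higher. The median difference was -0.10 over both types, -0.03 in Th1 and -0.13 in Th17 cells, against 0.01 over both for all genes, and 0 members were called. In 4 of the 26, namely Il24, Lta, Il21 and Il31, the genotypes did not overlap in either type (1.93% of all genes did so in this direction). Il31 was near the array medians, with differences of -0.18 in Th1 and -0.23 in Th17 cells. The list was drawn up with earlier results of these arrays known, so its count is not independent evidence. In bulk RNA, fewer cells making a cytokine and less of its RNA per cell cannot be told apart.

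Other cytokines belonged to the members by sign while their differences sat in 1 cell type. Ifng read 11.56 and 11.89 in wild-type and 10.43 and 10.18 in Tet2-/- Th1 cells, whereas the Th17 arrays of both genotypes lay between 6.00 and 6.07, near the array medians. Its difference was -1.42 in Th1 and -0.01 in Th17 cells. The difference between these effects, 1.41, had an unadjusted p of 9.06e-06 and an adjusted p of 0.15 by limma. Il3 differed by -1.13 in Th1 and -0.10 in Th17 cells, where it read 4.60 to 4.96, and Tnf by -0.12 and -0.45. Il17a differed by 0.03 in Th1 cells, where it read 5.89 to 6.20, and by -0.66 in Th17 cells, and Il2 by 0.07 and -0.60, so neither was a member.

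**Figure D3:**
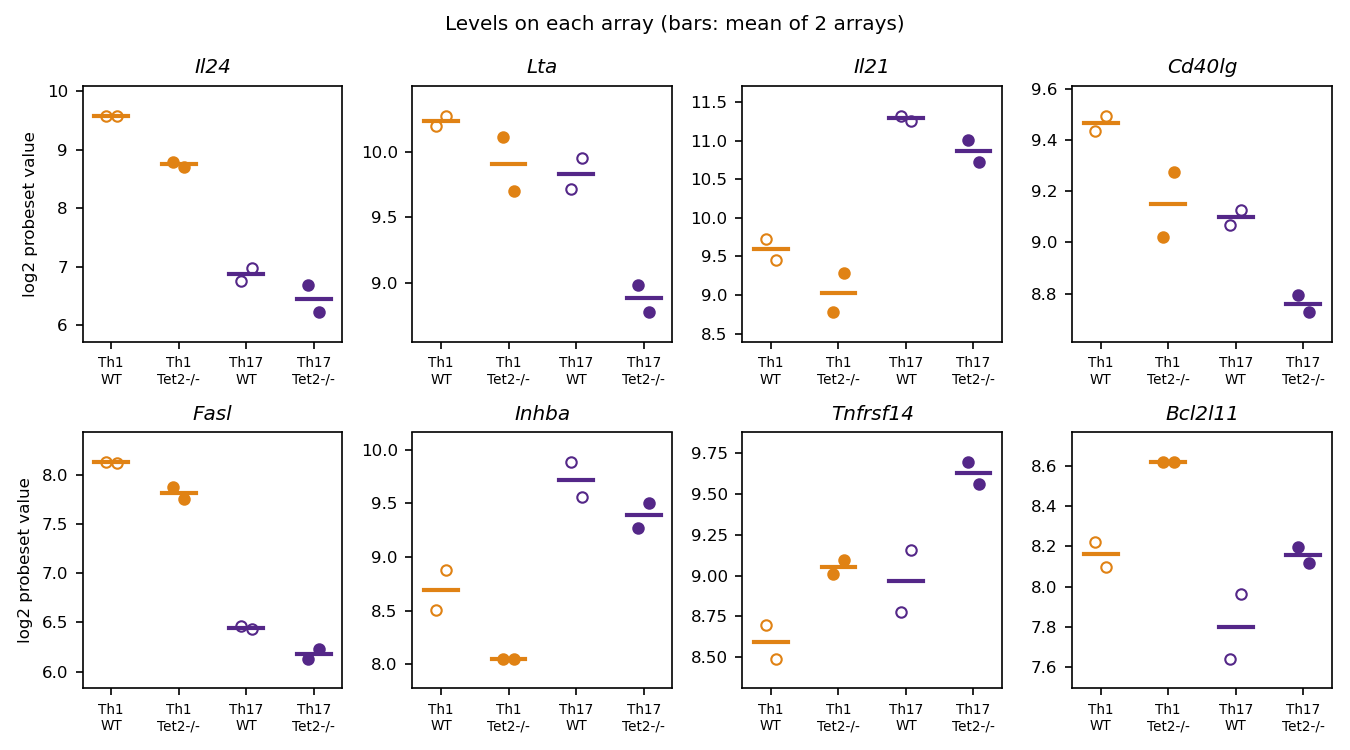
Log2 probeset value on each of the 8 arrays for 8 genes of the same sign in both cell types, by group; open circles are wild-type arrays, filled circles Tet2-/- arrays, and bars the mean of 2 arrays. In each panel both Tet2-/- arrays lie on the same side of both wild-type arrays in Th1 (orange) and in Th17 cells (purple): below them for Il24, Lta, Il21, Cd40lg, Fasl and Inhba, above them for Tnfrsf14 and Bcl2l11. The vertical axes differ and do not start at 0.

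Ligands and receptors of the TNF superfamily stood in both directions. Cd40lg, which encodes the CD40 ligand through which helper T cells activate B cells, read 9.44 and 9.50 in wild-type and 9.02 and 9.28 in Tet2-/- Th1 cells. In Th17 cells it read 9.07 and 9.13 in wild-type and 8.79 and 8.73 in Tet2-/- cells. Its differences of -0.32 and -0.34 were close to each other (-0.33 over both, SE 0.0838, limma adjusted p = 0.789). Cd40lg is X-linked, and the sex-linked transcripts of the Th17 arrays given above differed both within and between the genotypes. The part of this in its Th17 difference was not tested.

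Fasl, the death ligand that engages Fas, read 8.13 and 8.12 in wild-type and 7.87 and 7.76 in Tet2-/- Th1 cells, then 6.46 and 6.43 in wild-type and 6.13 and 6.23 in Tet2-/- Th17 cells. The groups did not overlap, and the gaps were of like size at levels that differed by -1.66 between Th17 and Th1 cells. The difference was -0.31 in Th1 and -0.27 in Th17 cells (-0.29 over both, SE 0.0733, limma adjusted p = 0.789).

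Tnfrsf14 encodes HVEM, the receptor for LIGHT and BTLA. It read 8.70 and 8.49 in wild-type and 9.01 and 9.09 in Tet2-/- Th1 cells, then 8.77 and 9.15 in wild-type and 9.70 and 9.56 in Tet2-/- Th17 cells. Both Tet2-/- arrays lay above both wild-type arrays in each type. The difference was 0.46 in Th1 and 0.66 in Th17 cells, and 0.56 over both (SE 0.102, 1.47-fold, limma adjusted p = 0.354). Tnfrsf9, which encodes the costimulatory receptor 4-1BB, read 11.67 and 12.21 in wild-type and 11.88 and 11.73 in Tet2-/- Th1 cells, where the genotypes overlapped, with differences of -0.14 in Th1 and -0.61 in Th17 cells. Of 16 measured members of this list, 5 read lower and 4 higher in both types, and the median over both types was 0.02. Without overlap, 2 were lower (Fasl, Cd40lg) and 1 higher (Tnfrsf14), against 1.93% and 3.70% of all genes. Lta, a TNF family cytokine gene that was also lower without overlap, was counted in the T cell cytokine list and not here.

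Among surface receptors, the named genes were Lgr4, Igf1r and Tnfrsf14 in the higher group and Gpr83 in the lower group. Of 17 cytokine receptor genes measured, 3 read lower and 7 higher in both types, with a median of 0.09 over both, and 2, Il6st and Il17ra, were higher without overlap (3.70% of all genes were). Il6st encodes gp130, the signal transducer shared by IL-6 family receptors, and differed by 0.18 in Th1 and 0.16 in Th17 cells. Il17ra encodes a subunit of the IL-17 receptor and differed by 0.13 and 0.23. Neither was called (limma adjusted p = 0.918 for each).

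Lgr4 encodes a receptor for R-spondins, which strengthen Wnt signalling. It read 6.45 and 6.63 in wild-type and 6.91 and 6.99 in Tet2-/- Th1 cells, then 7.73 and 7.76 in wild-type and 8.60 and 8.42 in Tet2-/- Th17 cells. Its 0.59 over both types (0.41 in Th1, 0.76 in Th17; SE 0.0937, 1.50-fold, limma adjusted p = 0.298) was the largest among the 12 higher genes. Igf1r encodes the receptor of insulin-like growth factor. It read 8.69 and 8.62 in wild-type and 9.10 and 9.23 in Tet2-/- Th1 cells, then 9.14 and 9.31 in wild-type and 9.69 and 9.48 in Tet2-/- Th17 cells. The gap was similar in both types, at 0.51 and 0.36 (0.43 over both, SE 0.0879, limma adjusted p = 0.549).

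Gpr83 encodes a G protein-coupled receptor known from regulatory T cells. It read 7.44 and 7.38 in wild-type and 7.35 and 7.02 in Tet2-/- Th1 cells, then 8.88 and 8.96 in wild-type and 7.99 and 7.96 in Tet2-/- Th17 cells. The Th17 gap was wide and the Th1 gap narrow, with 1 Tet2-/- Th1 array just under the wild-type pair. The difference was -0.23 in Th1 and -0.95 in Th17 cells (-0.59 over both, SE 0.132, limma adjusted p = 0.642), and the difference between these effects, -0.72, had an unadjusted p of 0.00172 and an adjusted p of 0.954 by limma. Foxp3, the defining factor of regulatory T cells, read 6.42 to 6.74 on all 8 arrays, near the array medians, with differences of 0.14 and -0.01.

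Of 14 inhibitory and costimulatory receptors, 8 read lower and 1, Lag3, read higher in both types, with a median of -0.05. As deposited, 0 members were lower without overlap (1.93% of all genes were), and 2 were after quantile normalization and 1 after median centring. Cd226, which encodes the activating receptor DNAM-1, differed by -0.30 in Th1 and -0.54 in Th17 cells, but 1 Tet2-/- Th1 array lay between the wild-type arrays (7.83 and 7.70 in wild-type, 7.21 and 7.71 in Tet2-/-).

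Several of the 24 genes encode proteins of signalling inside the cell. Themis encodes a T cell protein of T cell receptor signalling needed for thymocyte selection. It read 8.64 and 8.63 in wild-type and 7.69 and 8.08 in Tet2-/- Th1 cells, then 9.54 and 9.72 in wild-type and 9.53 and 9.25 in Tet2-/- Th17 cells. In Th17 cells 1 Tet2-/- array lay only just below the lower wild-type array. The difference was -0.75 in Th1 and -0.24 in Th17 cells (-0.49 over both, SE 0.125, limma adjusted p = 0.789). Of 17 genes of the T cell receptor and its proximal signalling, 1 read lower, Themis, and 6 read higher in both types, with a median of 0.06.

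Ripor2 encodes an inhibitor of the GTPase RhoA. It read 7.09 and 6.89 in wild-type and 7.55 and 7.55 in Tet2-/- Th1 cells, then 9.07 and 9.17 in wild-type and 9.56 and 9.67 in Tet2-/- Th17 cells. The gap was alike in both types although the levels lay 2.10 apart. The difference was 0.56 in Th1 and 0.50 in Th17 cells (0.53 over both, SE 0.0818, 1.44-fold), and its limma adjusted p of 0.298 was the smallest of all genes, shared with Lgr4.

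Rasa3 encodes a GTPase-activating protein for Ras and Rap. It read 7.89 and 7.60 in wild-type and 8.27 and 8.40 in Tet2-/- Th1 cells, then 8.66 and 8.75 in wild-type and 9.35 and 9.08 in Tet2-/- Th17 cells. The genotypes were well apart in both types, by 0.59 and 0.51 (0.55 over both, SE 0.0956, 1.46-fold, limma adjusted p = 0.353). Stim1 encodes the calcium sensor of the endoplasmic reticulum that opens store-operated calcium entry. It read 7.74 and 7.57 in wild-type and 8.07 and 8.21 in Tet2-/- Th1 cells, then 8.35 and 8.46 in wild-type and 8.77 and 8.67 in Tet2-/- Th17 cells. Again no arrays overlapped, with differences of 0.48 and 0.32 (0.40 over both, SE 0.0851, limma adjusted p = 0.549). Pde2a, a phosphodiesterase of cyclic AMP and cyclic GMP, differed by 0.39 in Th1 and 0.58 in Th17 cells, from lower levels of 5.86 to 6.45 on the Th1 arrays and 7.03 to 7.85 on the Th17 arrays.

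Bcl2l11 encodes BIM, a BH3-only protein of the Bcl2 family that starts apoptosis of T cells. It read 8.22 and 8.10 in wild-type and 8.62 and 8.62 in Tet2-/- Th1 cells, then 7.64 and 7.96 in wild-type and 8.20 and 8.12 in Tet2-/- Th17 cells. All 4 Tet2-/- arrays lay above the wild-type arrays of their type. The difference was 0.46 in Th1 and 0.36 in Th17 cells (0.41 over both, SE 0.089, 1.33-fold, limma adjusted p = 0.549). In the Bcl2 family list, 4 of 15 measured genes read lower and 6 higher in both types (5 and 5 after quantile normalization, 6 and 5 after median centring). The list had a median of 0.02, and Bcl2l11 alone did not overlap (5.63% of all genes did not). Of 16 p53 target genes, 3 read lower and 8 higher, with a median of 0.02. Sesn1, which encodes the stress protein sestrin 1, differed by 0.39 and 0.19, and Trp53inp1, a p53 cofactor gene, by 0.18 and 0.33. Both were higher without overlap (3.70% of all genes were), but the list held 0 such genes after quantile normalization and 1 after median centring. Gadd45a, a growth arrest gene, was lower without overlap (1.93% of all genes were).

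Nuclear proteins in the lower group included Jarid2, a partner subunit of the Polycomb complex PRC2, which methylates histone H3. Jarid2 read 10.16 and 10.42 in wild-type and 10.11 and 9.93 in Tet2-/- Th1 cells, then 10.32 and 10.34 in wild-type and 9.85 and 9.77 in Tet2-/- Th17 cells. The genotypes lay close together in Th1 cells and apart in Th17 cells. The difference was -0.27 in Th1 and -0.52 in Th17 cells (-0.39 over both, SE 0.0945, limma adjusted p = 0.697). Eid3, which encodes an inhibitor of the coactivator EP300, read 6.20 and 6.49 in wild-type and 6.06 and 5.63 in Tet2-/- Th1 cells, then 6.46 and 6.33 in wild-type and 5.89 and 5.97 in Tet2-/- Th17 cells, around the array medians.

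Of 22 genes of DNA methylation and demethylation, 5 read lower and 4 higher in both types, with a median of 0.00, and 0 were called. Tet3 differed by 0.16 in Th1 and 0.04 in Th17 cells, and Tet1 by 0.19 and -0.04. Gadd45a differed by -0.16 in Th1 and -0.10 in Th17 cells, without overlap (1.93% of all genes were lower without overlap). Apobec3, a cytidine deaminase gene, differed by 0.06 and 0.23. Its arrays did not overlap as deposited (3.70% of all genes were higher without overlap) but did after quantile normalization and after median centring. Of 23 measured transcription factors that define helper T cell lineages, 2 read lower and 11 higher in both types (2 and 9 under the other scalings). Among all genes 21.7% read lower and 30.5% higher in both. The median of the 23 was 0.07. As deposited, 0 of them were without overlap (5.63% of all genes were), and 1 was higher without overlap after quantile normalization. Bcl6, the defining repressor of follicular helper cells, was among the higher ones by sign, with 0.05 in Th1 and 0.75 in Th17 cells, while Gata3 had opposite signs.

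**Figure D4:**
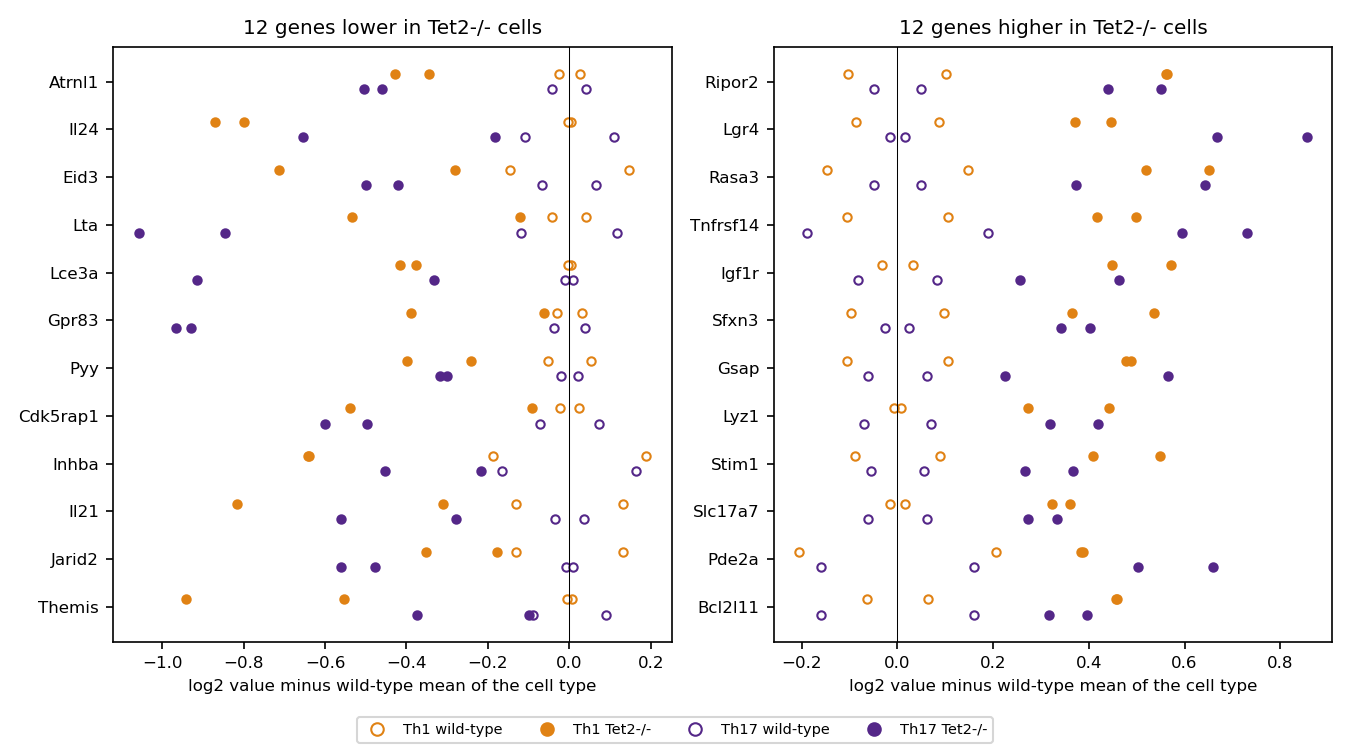
Log2 value of each array minus the wild-type mean of its cell type, for the 12 lower (left) and 12 higher (right) genes; open circles are wild-type, filled circles Tet2-/-, orange Th1 and purple Th17 cells, 2 arrays each. For every gene drawn, both Tet2-/- arrays lie beyond both wild-type arrays of their cell type, as the rule requires; the gap is narrow for several genes, among them Gpr83, Jarid2, Cdk5rap1 and Lta in Th1 cells and Themis, Inhba and Il24 in Th17 cells.

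The other named genes have no role in T cells that is given here. In the lower group, Atrnl1, an attractin-like membrane protein gene, read 7.28 and 7.34 in wild-type and 6.88 and 6.97 in Tet2-/- Th1 cells, then 7.50 and 7.58 in wild-type and 7.08 and 7.03 in Tet2-/- Th17 cells. Its replicates were close, and its difference of -0.43 (SE 0.0737) had the smallest adjusted p of the lower group, 0.353 by limma. Lce3a, a gene of the cornified envelope of skin, differed by -0.40 in Th1 and -0.62 in Th17 cells at levels of 5.41 to 6.74, and Cdk5rap1, which encodes an enzyme that modifies mitochondrial tRNA, by -0.32 and -0.55. In the higher group, the mitochondrial carrier gene Sfxn3 differed by 0.45 and 0.37, and Gsap, which encodes the gamma-secretase activating protein, by 0.48 and 0.40. Slc17a7, a vesicular glutamate transporter gene, differed by 0.34 and 0.30 at levels of 6.07 to 6.53, near the array medians. Lyz1, a lysozyme gene, differed by 0.36 and 0.37 at levels of 6.24 to 6.89. It has a near-identical copy, Lyz2, whose own probeset read 4.66 to 5.06 with differences of -0.10 and 0.19, and how far probes of either gene also bind the other's RNA was not tested.

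Over the 24 genes, the size of the difference over both cell types lay between 0.32 and 0.64 (1.24-fold to 1.56-fold), with standard errors of 0.07 to 0.136 and limma adjusted p-values of 0.298 to 0.789. The difference between the Th17 and the Th1 effect had an unadjusted p under 0.05 in 3 of the 24, Lta, Gpr83 and Themis, all of the lower group, and in none of the 12 higher genes. Over all genes, 908 (4.55%) had such a p and 0 (0%) were called after adjustment. Each of the 24 genes had a single probeset. Elsewhere, other probesets gave a limited second reading. Of 1053 further probesets of members, 536 (50.9%) had the gene's direction in both cell types. Among the 764 with a mean level of at least 6, 450 (58.9%) did. Since 2 signs had to match here, these shares do not compare with the 52.2% of same-sign genes, and the share for unrelated probesets was not computed.

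The contrast of cell types was not used by the rule. Of the 24 genes, 18 (75.0%) were called between Th17 and Th1 cells by limma, 14 higher and 4 lower in Th17, where 22.6% of all genes and 28.2% of the 12990 genes with a mean of at least 6 were called. The median size of the cell type difference was 0.60 in the 24 genes, 0.16 in genes with a mean of at least 6 and 0.13 in all genes. Th17 minus Th1, Il24 stood at -2.50 (limma adjusted p = 1.88e-08) and Fasl, which is not among the 24, at -1.66 (9.46e-09). Il21 was higher in Th17 cells by 1.77 (limma adjusted p = 4.44e-07), Ripor2 by 2.10 (4e-09), Lgr4 by 1.39 (5.22e-07) and Inhba by 1.18 (1.24e-05). The 24 genes were taken for a small p in the same fit, and both contrasts use the same estimate of the spread. The share of calls is therefore not independent of the choice. Their standard errors for the Tet2 difference, 0.07 to 0.136, lay on both sides of the median of 0.0877 over all genes. Why the cell type difference was larger in these genes was not tested.

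**Figure D5:**
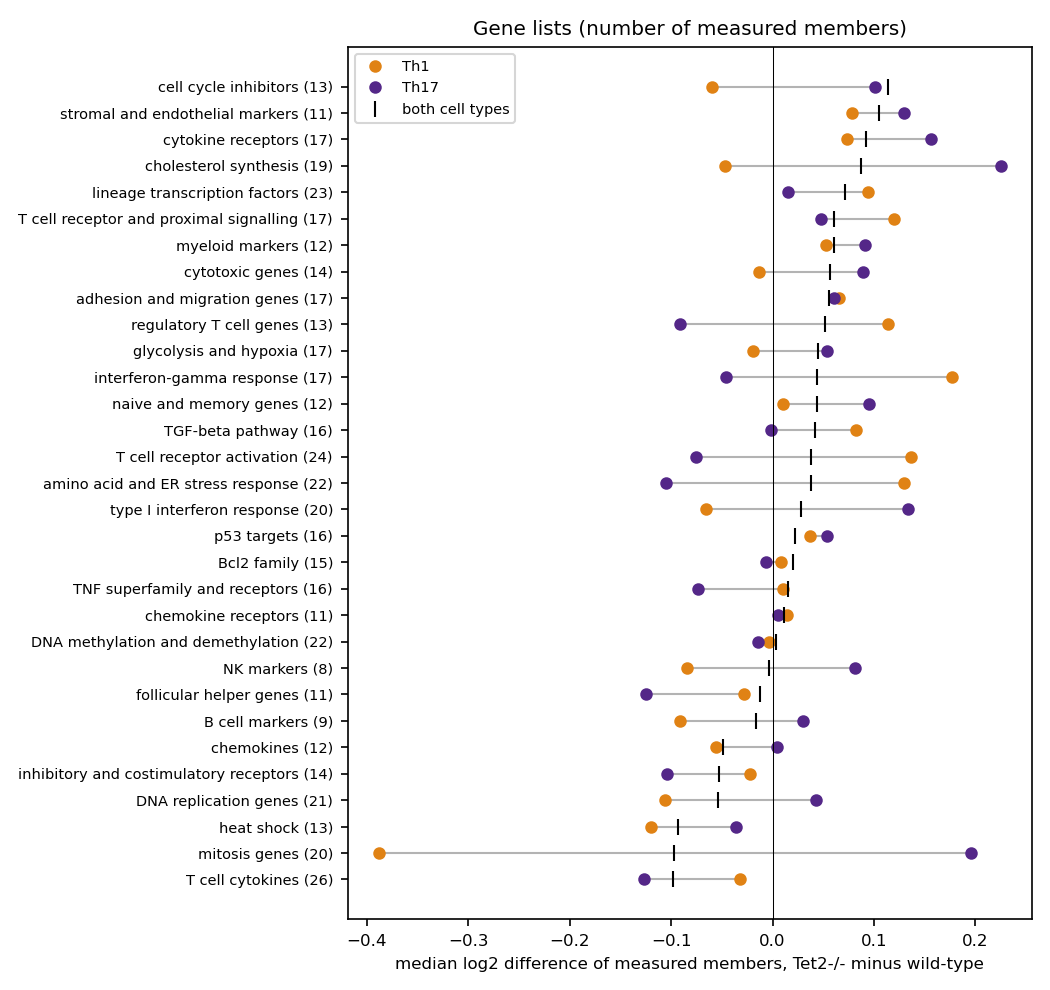
Median log2 difference (Tet2-/- minus wild-type) of the measured members of 31 gene lists, with the number of members in brackets; orange points are Th1 cells, purple points Th17 cells and black ticks the fit over both. T cell cytokines lie at -0.10 over both types, with both points below 0, while mitosis genes lie at -0.39 in Th1 and 0.20 in Th17 cells.

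Markers of other cell types gave these values. The mean of 8 stromal and endothelial markers was 6.52 to 6.57 in wild-type and 6.69 to 6.71 in Tet2-/- Th1 cells, and 6.80 to 6.90 in wild-type and 7.11 to 7.18 in Tet2-/- Th17 cells, so it moved with genotype in both types. In the longer list of 11 such genes, 0 read lower and 6 higher in both types (0 and 4 under the other scalings), with Pecam1, Sparc and Cdh5 higher without overlap (3.70% of all genes were). Pecam1, which T cells also express, differed by 0.44 and 0.25 and Sparc by 0.51 and 0.19. The fibroblast genes Lum (-0.06 in Th1, 1.02 in Th17) and Dcn (-0.04 and 0.59) had opposite signs in the cell types, with the larger values in Th17 cells, and the collagen genes Col1a1 (0.01 and 0.05) and Col3a1 (0.00 and 0.08) differed by less than 0.10 in each type. The part of this in the higher genes was not tested. Marker means of other types stayed low: 5.29 to 5.51 for 4 B cell markers, 5.38 to 5.57 for 6 myeloid markers and 4.89 to 5.41 for 5 NK cell markers, over all 8 arrays. Of the longer myeloid list, 0 of 12 read lower and 7 higher in both types, with a median of 0.06. The mean of these 12 was 6.036 and 5.976 in wild-type and 6.075 and 6.039 in Tet2-/- Th1 cells. In Th17 cells it was 5.926 and 5.947 in wild-type and 6.079 and 6.091 in Tet2-/- cells. This mean too was higher with Tet2 loss in both types, by little in Th1 cells, and its part in the higher genes was not tested.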

How the data were processed

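The series holds 8 Affymetrix arrays. The deposited table gives a log2 value per probeset and array (35556 probesets); the submitters' processing notes name RMA and Partek for what the authors did, and the base of the logarithm was inferred from how large the values are. Software versions and the genome build are not given in the sources used here. Probesets were named through the platform annotation (21789 with 1 symbol, 1621 with several, 12146 with none), and the highest-mean probeset stood for a gene, which gave 19938 genes.

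Genotype was fitted in limma 3.58.1 (R 4.3.3) on all 8 arrays with cell type as a term, an intensity trend and 5 residual degrees of freedom, two-sided, with Benjamini-Hochberg adjustment over all genes. The differences within each cell type, their difference and the cell type contrast came from the same values. The fit was tested on simulated data.

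Named genes had both Tet2-/- arrays beyond both wild-type arrays in each cell type and the higher genotype's mean at 6 or above; the 12 lower and 12 higher genes of smallest unadjusted p were described, with 17 further genes (16 measured) and up to 4 members of each of 34 lists by p. A few list members with larger p were added for what they are known for. The members, lists and rules were chosen with earlier results of these data known. The alternatives were other scalings, filters, priors, models and probeset choices, and leaving out arrays. With 2 arrays per group, their number limits the precision.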

Additional observations from a re-analysis of the deposited data

Results flagged for a closer look

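In these genes and lists every Tet2-/- array moved one way in Th1 cells and the other way in Th17 cells, against the wild-type arrays of its type, so they lie outside the same-sign genes. Prdm1, which encodes the repressor BLIMP-1, read 7.48 and 7.53 in wild-type and 6.73 and 6.74 in Tet2-/- Th1 cells, then 5.89 and 5.84 in wild-type and 5.97 and 6.23 in Tet2-/- Th17 cells. The Th17 effect minus the Th1 effect was 1.01 (limma unadjusted p = 3.88e-05, adjusted p = 0.194). Tbx21, which encodes the Th1 factor T-bet, differed by 0.20 in Th1 and -0.54 in Th17 cells, a difference of -0.742 (limma adjusted p = 0.999).

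Among 34 lists, taken as the mean of their members on each array, those below were flagged for moving in opposite directions. Cholesterol synthesis genes had a Th17 minus Th1 effect of 0.284 and amino acid and ER stress response genes of -0.255. NK cell markers had 0.295, at list means of 5.16 to 5.45 on the 8 arrays, below the array medians. For these list means the difference was not tested.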

How the results depend on the processing

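Under 20 alternatives, 8 of which left out 1 array, 0 genes were called for Tet2 loss over both cell types, and the limma adjusted p-values of the 24 named genes lay between 0.0976 and 1.00. Their sign changed in none of 480 values. Their choice for arrays without overlap fixes this wherever arrays are left out or the prior is changed. Quantile normalization and median centring moved the median difference of all genes only from 0.012 to 1.6e-05 and -0.0028. That is small beside the differences of the 24 genes, so a kept sign there says little. Whether their arrays overlap was not fixed under these scalings, and all 24 stayed without overlap. Of 320 values for the panel of known regulators, 4 changed sign: Xist was -0.47 without the 2 arrays at the extremes of Y-linked level and -0.038 without Th17 wild-type replicate 1 (-0.038 to 1.92 over single arrays left out), and Gata3 was 0.078 without Th17 wild-type replicate 2 and 0.02 without Th17 Tet2-/- replicate 1 (-0.14 to 0.078). For the difference between the Th17 and Th1 effects, leaving out 1 array gave calls only without Th17 Tet2-/- replicate 1. These were Alpk2, Klrd1 and the Y-linked genes Eif2s3y and Uty. The Tet2-/- Th17 array with a Y-linked mean of 4.85 stood alone for its group in the fit without replicate 1. Cell type calls ranged from 2984, without that same array, to 4478 when 1 array was left out. Same-sign genes ranged from 9676 (48.5%) to 10792 (54.1%) when 1 array was left out, against 52.2% with all 8. The lowest count came without Th17 wild-type replicate 1. Without the 2 arrays at the extremes of Y-linked level there were 9894 (49.6%), and all probesets gave 18743 (52.7%). Genes without overlap ranged from 2027 to 2537 when 1 array was left out (697 to 1061 lower, 1267 to 1634 higher), since 1 array fewer makes non-overlap easier. For the same reason they numbered 3290 (1234 lower, 2056 higher) without those 2 extreme arrays. Over all probesets there were 1984 (851 lower, 1133 higher) of 35556, where the main count was 1122 of 19938 genes. With a mean of at least 6 required, 255 were lower; after quantile normalization, 581 were. No such count was made for the fit that adjusts for Y-linked level. The replicate block gave 0 calls for Tet2 loss and 947 genes at an unadjusted p under 0.05, against 1048; replicate numbers did not pair the arrays, with correlations of same-numbered deviations from -0.189 to 0.0534. List medians turned sign under some alternative in 20 of 34 lists and kept it in 14, T cell cytokines among them (-0.14 to -0.05).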

Other observations

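Mitosis genes were nearly absent from the same-sign genes. Of 20 measured, 1 had the same sign in both cell types: all 20 read lower in Tet2-/- Th1 cells and 19 read higher in Tet2-/- Th17 cells, with medians of -0.39 and 0.20. On single arrays the mean of these genes was 8.15 and 8.34 in wild-type and 7.82 and 7.95 in Tet2-/- Th1 cells, and 7.94 and 7.97 in wild-type and 7.89 and 8.43 in Tet2-/- Th17 cells, so in Th17 cells the genotypes overlapped. Of 24 genes induced by T cell receptor activation, 8 (33.3%) had the same sign, with medians of 0.14 in Th1 and -0.08 in Th17 cells. Of 13 heat shock genes, 8 read lower and 2 higher in both types, with a median of -0.09, and the chaperone genes Hsp90aa1 (-0.18 and -0.05) and Hspa4 (-0.13 and -0.06) were lower without overlap (1.93% of all genes were), though not after quantile normalization.

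Among 17 adhesion and migration genes, 2 read lower and 7 higher in both types. Itgb7, the integrin beta 7 gene of gut homing, differed by 0.38 in Th1 and 0.34 in Th17 cells, and Selplg, which encodes the selectin ligand PSGL-1, by 0.33 and 0.44, both higher without overlap (3.70% of all genes were), though Selplg was not after quantile normalization. Id3, a naive and memory T cell regulator, differed by 0.39 and 0.56; its wild-type Th17 arrays, at 6.42 and 7.30, were far apart. Hk2, the hexokinase gene of glycolysis, differed by -0.27 and -0.32, and Irgm1, an interferon-induced GTPase gene, by 0.44 and 0.31. Among the 100 genes nearest to Tet2, 50 on each side, 51 had the same sign and 5 (5.0%) did not overlap in both types, against 5.63% of all genes.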
